A study of Mus musculus with 12 samples.

Results

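Lumbar spinal cord from 3 edaravone-treated mice (group E, mice E75, E77 and E90) that model amyotrophic lateral sclerosis (ALS) was compared with that of 3 healthy wild-type mice (group H, mice H1, H2 and H4). The members are these 6 libraries, chosen by their labels out of 12, and every gene of the deposited tables. The other 6 libraries come from mice of the same model that were given phosphate-buffered saline (PBS; group P, P66, P67 and P74) or manganese-doped carbon dots (group C, C79, C84 and C85). The submitters list E as a group code, yet their text explains edaravone as D. E was therefore read as edaravone by elimination. The sources used here do not give the strain or transgene of the model, the age of the mice, or the dose, route and length of treatment. Healthy mice received no agent that the labels name, so model and drug change together between E and H and cannot be told apart there. The test of E against P holds the model constant and is given beside it.

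Gene levels are in FPKM, reads or fragments per kilobase of exon scaled to the reads of the library, and 16.8 to 19.8 M reads per library could be recovered from the values. Differences are of log2(FPKM + 1), given as E minus H ± standard error with n = 3 mice per group, and understate the change of low genes. They were tested with limma over all 18118 genes with enough reads. A gene passed, and is said to rise or fall, at a Benjamini-Hochberg adjusted p below 0.05. Each library is 1 mouse, so the spread is that between mice.

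ALS is a disease in which motor neurons of the cord and brain degenerate and the muscles they drive waste. Around dying motor neurons microglia, the macrophages of the central nervous system, turn from a resting into a phagocytic state, and astrocytes become reactive. Edaravone is a radical scavenger given to patients with ALS. The question the comparison bears on is how far the cord of treated model mice lies from that of healthy mice.

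Markers of the cord's own cells were present in every library, among them Snap25 of neurons (242 to 427 FPKM over the 12 libraries), Mbp of oligodendrocytes (1200 to 2539 FPKM) and Csf1r of microglia (17.1 to 67.7 FPKM). Neurod6, listed as a forebrain marker, lay between 0.693 and 2.05 FPKM. Of the sensory ganglion markers, Scn10a was at most 0.0145 FPKM, Trpv1 at most 0.324 FPKM and Avil between 0.136 and 1.10 FPKM. Xist was at most 0.0213 FPKM and the Y-linked Ddx3y at least 15.1 FPKM in all 12. The healthy libraries differed from one another in their tissue scores. H1 had a skeletal muscle score, the mean log2(FPKM + 1) of 13 muscle genes, of 7.12, against 4.03 in H2 and 1.86 in H4, and the E libraries lay at 1.06, 0.71 and 2.36. H4 had a lumbosacral Hox score over 9 genes of 0.32, against 1.67 in H1, 1.31 in H2 and 2.25, 2.63 and 2.71 in E75, E77 and E90. Hox genes are expressed by level along the cord, and a fit with that score as covariate was run as an alternative. The Hox scores of H and E did not overlap, so that fit cannot tell level and group apart. Calls lost on leaving out 1 mouse are named beside the leading genes, and for some lists the counts without that mouse are given. Counts of other lists fell too. At the lowest of the 14 alternatives, disease-associated microglia genes that rose went from 22 to 19 and reactive astrocyte genes from 20 to 17. Lysosomal genes went from 19 to 16 and lipid carriage and efflux genes from 10 to 7. Immediate early genes went from 11 to 8 and p53 and cell death genes from 10 to 8.

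Of 18118 genes, 2393 (13.2%) passed between E and H. 2003 genes (11.1%) were higher in E and 390 (2.15%) were lower. The 3 treated mice did not overlap the 3 healthy ones for 32.9% of the genes tested, 24.9% with E higher and 7.93% with E lower. The share of all genes at an unadjusted p below 0.05 was 29.7%. A list whose share of calls is near 11.1% upward or 2.15% downward does not stand out from all genes. Changes of at least 2-fold numbered 471 upward and 29 downward. The upward share of the calls, 83.7%, was 58.4% with median-ratio scaling (1287 higher and 918 lower), which lowered the median difference of all genes by 0.10. The count was 1159 without E90 and 1166 without H2. For the model mice on PBS, 2807 genes (15.5%) passed against H, 2216 higher (12.2%) and 591 lower (3.26%). For those on carbon dots 1505 (8.31%) passed, 1313 higher (7.25%) and 192 lower (1.06%). These comparisons share the H libraries, and their counts are set side by side only. Between E and P 0 genes passed (0.0%), and 0 also by limma-voom on recovered reads. At an unadjusted p below 0.05 in limma were 889 of the 18118 genes.

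The largest rises were in genes of phagocytes, of reactive astrocytes and of nerve root and connective tissue. Lyz2, the lysozyme of macrophages, had 15.5, 9.41 and 11.9 FPKM in H1, H2 and H4 and 306, 243 and 508 FPKM in E75, E77 and E90. The lowest treated mouse was far above the highest healthy one (4.69 ± 0.38, adjusted p = 0.000171). The 12 largest changes in each direction were chosen among genes without overlap of E and H. For these genes the separation of the groups follows from that choice. Gpnmb, a glycoprotein of lipid-laden phagocytes, had 0.366, 0.335 and 0.204 FPKM in H and 31.1, 15.4 and 47.4 FPKM in E (4.50 ± 0.51, adjusted p = 0.000818). It was close to absent from healthy cord and clearly present in all 3 treated mice. The largest falls were in haemoglobin genes, Hba-a1 (-2.96 ± 0.61), Hbb-bt (-2.79 ± 0.62), Hbb-bs (-2.71 ± 0.62) and Hba-a2 (-2.11 ± 0.56), and in genes of motor neurons and muscle. All 4 haemoglobin calls were lost with the Hox covariate and with H and E alone, that of Hbb-bt also without E75 and that of Hbb-bs without E75 or E77. The Hba-a2 call was lost without H1, H4, E75, E77 or E90, with no filter and by limma-voom, 9 of 14 settings in all. The haemoglobin copies are near identical, so the division of reads among them is uncertain.

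**Figure D1:**
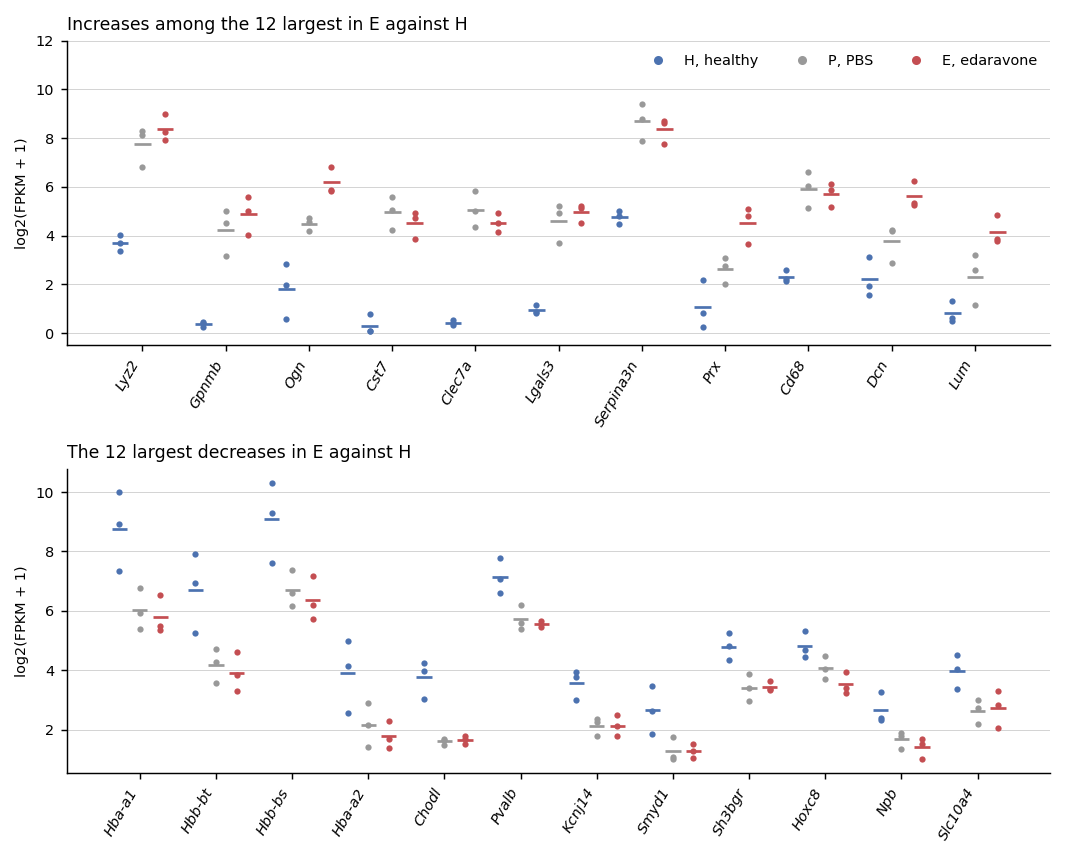
Level of 11 of the 12 genes with the largest rise and of the 12 with the largest fall in E against H, as log2(FPKM + 1) on the y axis, one point per mouse of groups H, P and E with a bar at the group mean. Genes were eligible only where the E and H points do not overlap, so their separation follows from the choice. For Lyz2 the E points run from 243 to 508 FPKM and the H points from 9.41 to 15.5 FPKM.

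**Figure D2:**
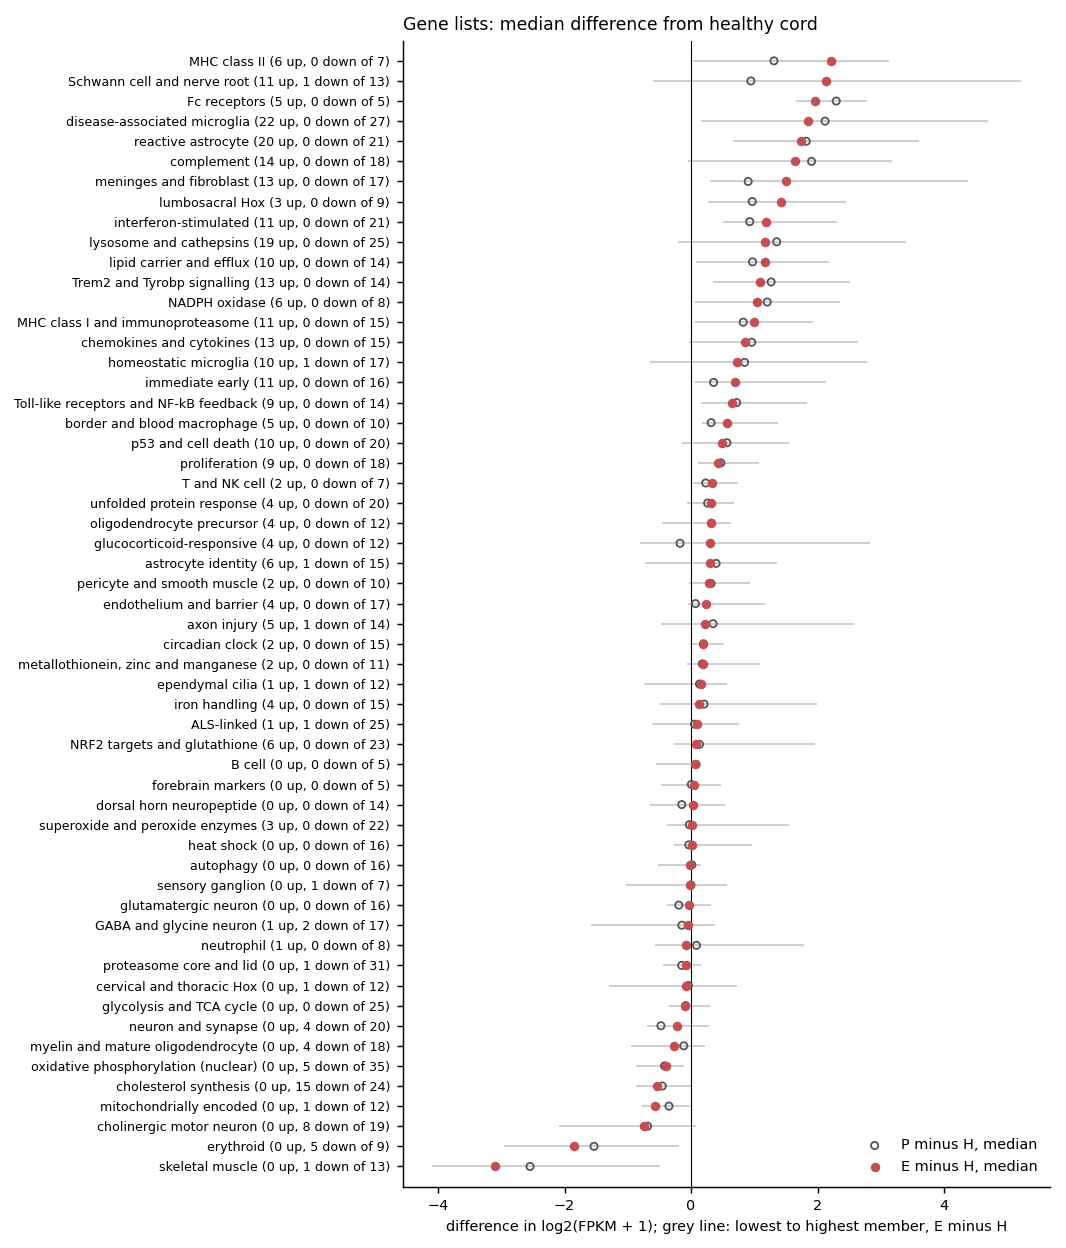
Median difference from healthy cord, in log2(FPKM + 1), of each gene list with at least 4 tested genes, filled for E and open for P, with a grey line from the lowest to the highest gene of E minus H. Counts after each name give genes that rose and fell in E. Lists of microglia, astrocyte and connective tissue genes lie to the right and those of cholesterol synthesis, motor neurons, blood and muscle to the left.

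Genes of disease-associated microglia, the phagocytic state that surrounds dying neurons, rose together. Of 27 tested, 22 rose and 0 fell, with a median difference of 1.85 against 0.08 over all genes tested. Cst7, an inhibitor of lysosomal proteases, had 0.0604, 0.0553 and 0.704 FPKM in H and 25.2, 13.6 and 29.5 FPKM in E (4.19 ± 0.34, adjusted p = 0.000171). Only H4 of the healthy mice had more than a trace, and the lowest treated mouse, E77, was still far above it. Clec7a, a receptor for fungal glucans that this annotation lists as a polymorphic pseudogene, had 0.248, 0.331 and 0.460 FPKM in H and 21.8, 16.8 and 29.3 FPKM in E (4.10 ± 0.31, adjusted p = 0.000131). Lgals3, a galectin of phagocytes, had 1.25, 0.763 and 0.809 FPKM in H and 34.6, 22.0 and 36.2 FPKM in E (4.02 ± 0.33). For all 3 genes E77 was the lowest of the treated mice, and none of the treated mice reached into the healthy range. Cd68, a lysosomal membrane protein of macrophages (3.40 ± 0.34), and Itgax, the integrin CD11c (3.03 ± 0.30), rose as well. In bulk tissue, more cells of a type and more RNA per cell cannot be told apart.

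The receptor pair Trem2 and Tyrobp signals lipid debris to microglia, and 13 of 14 tested genes of that pathway rose (median 1.09). Trem2 had 1.81, 2.07 and 2.82 FPKM in H and 14.7, 8.81 and 13.7 FPKM in E (2.03 ± 0.24, adjusted p = 0.000615). The membrane proteins Ms4a6d (2.32 ± 0.29) and Ms4a7 (1.37 ± 0.19) and the signalling adaptor Vav1 (1.24 ± 0.17) rose. Of 17 homeostatic microglia genes, which mark the resting state, 10 rose and 1, Crybb1, fell (-0.66 ± 0.18, adjusted p = 0.0298), with a median of 0.72. Fcrls, an Fc receptor-like gene of microglia, had 3.96, 4.18 and 4.91 FPKM in H and 40.0, 27.6 and 41.7 FPKM in E (2.79 ± 0.25, adjusted p = 0.000258). Olfml3 (1.49 ± 0.22) and Csf1r, the receptor on which microglia depend for survival (1.25 ± 0.19), also rose. The resting-state marker P2ry12 had 8.68, 8.68 and 12.9 FPKM in H and 14.7, 11.8 and 11.7 FPKM in E, which overlapped and did not pass (0.32 ± 0.19). Tmem119 overlapped as well (0.17 ± 0.16).

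Complement genes, whose products tag cells and synapses for removal, rose in 14 of 18 tested (median 1.64). C4b, a classical pathway component, had 19.1, 17.6 and 16.1 FPKM in H and 120, 95.1 and 138 FPKM in E (2.67 ± 0.18, adjusted p = 0.000103). The lowest treated mouse lay far above the highest healthy one, though reads of C4b may be shared with its near-identical relative. C3ar1, the receptor for the fragment C3a (2.41 ± 0.24), and Itgb2, the beta chain of the complement receptors (2.29 ± 0.25), rose. All 5 tested Fc receptor genes rose (median 1.95), among them Fcgr3 (2.25 ± 0.24) and the inhibitory receptor Fcgr2b (2.78 ± 0.36). Of 8 tested genes of the NADPH oxidase, the phagocyte enzyme that makes superoxide, 6 rose. Its catalytic subunit Cybb had 0.246, 0.131 and 0.189 FPKM in H and 4.87, 3.22 and 8.02 FPKM in E (2.35 ± 0.30, adjusted p = 0.000938). The partner subunit Cyba (2.07 ± 0.30) rose with it, while the related oxidase genes Duox1 and Nox4 did not pass.

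Genes of antigen presentation rose in both classes. Of 15 tested genes of class I and the immunoproteasome, 11 rose (median 0.99), and of 7 of class II, 6 rose (median 2.22). The class I count was 7 without H2, 7 without E75 and 6 without E90. B2m, the light chain of class I, had 80.5, 100.6 and 114 FPKM in H and 417, 254 and 493 FPKM in E (1.93 ± 0.30, adjusted p = 0.00245). Cd74, the invariant chain of class II, had 2.37, 0.928 and 1.48 FPKM in H and 20.2, 15.3 and 30.2 FPKM in E (3.13 ± 0.39, adjusted p = 0.000965). Its partners H2-Aa (2.68 ± 0.34) and H2-Ab1 (2.22 ± 0.33) rose, and Ciita, the activator of class II genes, did not pass and stayed between 0.341 and 0.467 FPKM in all 6 mice. The H2 genes have near-identical relatives. Chemokine and cytokine genes rose in 13 of 15 tested, led by Ccl3 (2.63 ± 0.26) and Ccl4 (2.26 ± 0.26), which draw in leukocytes, and Ccl2 (1.81 ± 0.28), which draws in monocytes. That count was 6 without H2, 7 without E75 and 6 without E90, and 6 with no filter. Toll-like receptor and NF-kB genes rose in 9 of 14 tested, among them the lipopolysaccharide receptor Cd14 (1.84 ± 0.20) and Tlr2 (1.65 ± 0.21). That count was 5 without H2 and 5 without E90.

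Interferon-stimulated genes, the antiviral programme that interferons switch on, rose in 11 of 21 tested, and the difference was above 0 in all 21 (median 1.19). This count changed with single mice: 19 genes passed without E77, 7 without H1, 5 without H2, 4 without H4, 5 without E75 and 4 without E90. Bst2, a tether of budding virus, had 2.57, 3.14 and 2.75 FPKM in H and 19.0, 6.23 and 24.3 FPKM in E (2.01 ± 0.39, adjusted p = 0.00752). Gbp2, a guanylate-binding protein, had 1.09, 1.08 and 0.966 FPKM in H and 10.7, 4.27 and 15.2 FPKM in E (2.29 ± 0.44, adjusted p = 0.00739). For both genes E77 lay well below E75 and E90 and still above all healthy mice. Ifitm3, which blocks viral entry, rose by 2.09 ± 0.31, and Irf9, part of the factor that carries the interferon signal, by 0.90 ± 0.18.

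The interferon response acts through a short promoter element, and the promoters of the interferon-stimulated genes Bst2 and Gbp2 and of the class I gene B2m are printed to show what it looks like. The motif searched, on both strands and with overlaps allowed, was GAAA followed after any 2 bases by a second GAAA, the core of the interferon-stimulated response element. The 250 bases before the gene start are RefSeq sequence of GRCm38.p6, 5′ to 3′ in the direction of the gene, with the motif in capitals. Bst2 lies at chr8:71537473-71537722 (minus strand), Gbp2 at chr3:142620413-142620662 (plus strand) and B2m at chr2:122147437-122147686 (plus strand).
Bst2: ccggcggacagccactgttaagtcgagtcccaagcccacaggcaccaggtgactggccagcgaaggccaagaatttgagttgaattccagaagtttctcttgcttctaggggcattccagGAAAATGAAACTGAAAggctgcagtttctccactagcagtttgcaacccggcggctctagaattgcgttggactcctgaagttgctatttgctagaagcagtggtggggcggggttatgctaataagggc
Gbp2: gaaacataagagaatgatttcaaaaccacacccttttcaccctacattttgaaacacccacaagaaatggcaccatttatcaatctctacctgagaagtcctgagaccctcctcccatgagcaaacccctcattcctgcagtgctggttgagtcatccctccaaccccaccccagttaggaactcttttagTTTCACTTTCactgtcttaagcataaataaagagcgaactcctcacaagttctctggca
B2m: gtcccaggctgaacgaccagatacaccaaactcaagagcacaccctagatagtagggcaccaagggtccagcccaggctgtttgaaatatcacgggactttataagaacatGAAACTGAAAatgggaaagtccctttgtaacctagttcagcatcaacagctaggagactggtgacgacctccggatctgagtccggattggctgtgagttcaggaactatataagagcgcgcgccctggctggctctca
Bst2 holds 2 overlapping matches on the gene's strand, Gbp2 holds 1 on the other strand and B2m holds 1 on its own strand. Of the 21 interferon genes 17 had a promoter window of 300 bases, and 11 of those (64.7%) held the motif, against 1079 of 27025 genes with a window (3.99%). Of the 11 genes that held it 5 rose and 6 did not pass, and of the 6 without it 5 rose. A match describes the letters and not binding.

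Lysosomal genes rose in 19 of 25 tested (median 1.17). Grn, the lysosomal progranulin, had 14.3, 13.8 and 14.7 FPKM in H and 66.7, 50.4 and 79.99 FPKM in E (2.10 ± 0.24, adjusted p = 0.000611). The cathepsin Ctss (2.21 ± 0.28) and the lysosomal membrane protein Laptm5 (1.85 ± 0.24) rose. Of 16 tested autophagy genes 0 passed in limma and 0 by limma-voom, with 3 at an unadjusted p below 0.05 (median -0.01), a smaller share than the 29.7% of all genes. Genes of lipid carriage and efflux, through which phagocytes export the cholesterol of myelin, rose in 10 of 14 tested (median 1.17). Abca1, the cholesterol exporter, had 4.56, 4.30 and 4.49 FPKM in H and 15.98, 14.5 and 19.7 FPKM in E (1.69 ± 0.18, adjusted p = 0.000465). Healthy mice lay within a narrow band, and each treated mouse lay far above it. Mylip, which targets the lipoprotein receptor for breakdown (1.31 ± 0.16), Ch25h, which makes 25-hydroxycholesterol (2.19 ± 0.32), and the lipid carrier Apod (1.76 ± 0.27) rose.

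Reactive astrocyte genes rose in 20 of 21 tested (median 1.73). Serpina3n, an acute-phase protease inhibitor with near-identical relatives, had 31.2, 27.2 and 21.0 FPKM in H and 420, 214 and 394 FPKM in E (3.60 ± 0.35, adjusted p = 0.000313). Aspg, an asparaginase of reactive astrocytes (2.18 ± 0.24), rose too. Lcn2, a secreted iron carrier of reactive glia, had 1.02, 0.395 and 0.794 FPKM in H and 6.93, 12.9 and 15.3 FPKM in E (2.82 ± 0.26, adjusted p = 0.000258). It is treated further with the test of E against P. Of 15 genes of astrocyte identity, expressed in the resting state too, 6 rose and 1, the calcium-binding S100b, fell (-0.73 ± 0.15), with a median of 0.29. Aqp4, the water channel of astrocyte endfeet, had 83.5, 90.0021 and 83.3 FPKM in H and 233, 199 and 232 FPKM in E (1.36 ± 0.17, adjusted p = 0.000951). The gap junction gene Gja1 (0.70 ± 0.09), the glutamate transporter gene Slc1a3 (0.71 ± 0.10) and the factor Sox9 (0.91 ± 0.18) rose by less.

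Of 19 tested cholinergic and motor neuron genes 8 fell and 0 rose (median -0.74). The difference was below 0 in 18 of 19, and only Prdm8 (0.08 ± 0.10, adjusted p = 0.619) lay above. Chodl, a marker of fast motor neurons (chromosome 16, 78930948 to 78951733, GRCm38), had 18.1, 14.8 and 7.19 FPKM in H and 1.87, 2.20 and 2.45 FPKM in E (-2.10 ± 0.28, adjusted p = 0.00112). The treated mice lay close together and below the lowest healthy mouse, H4. Mmp9, a protease of vulnerable motor neurons, had 5.02, 4.44 and 2.76 FPKM in H and 1.77, 1.45 and 1.63 FPKM in E (-0.93 ± 0.15, adjusted p = 0.00327). The neurofilament genes Nefl (-0.80 ± 0.17, adjusted p = 0.0118), Nefm (-1.09 ± 0.27, adjusted p = 0.0225) and Nefh (-1.04 ± 0.31, adjusted p = 0.0477), Calcb (-0.94 ± 0.25), the intermediate filament gene Prph (-1.03 ± 0.30) and the factor Mnx1 (-0.73 ± 0.22) fell. For Prph and Mnx1 the value of E90 lay above that of H4, so these groups overlapped. The calls of Nefm, Nefh, Calcb, Prph and Mnx1 were each lost without H1, H2, E75 or E77, and those of Nefm and Nefh also without E90.

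The genes of acetylcholine itself did not pass without the Hox covariate, except Slc18a3 in some settings. Chat, which makes the transmitter, had 16.6, 11.3 and 6.03 FPKM in H and 4.58, 5.35 and 8.14 FPKM in E (-0.74 ± 0.35, adjusted p = 0.187). E90 lay above H4, so the groups overlapped. The vesicular transporter gene Slc18a3 (-1.13 ± 0.35, adjusted p = 0.0553) and the choline transporter gene Slc5a7 (-0.76 ± 0.31, adjusted p = 0.130) overlapped in the same way, and the esterase gene Ache did not overlap (-0.29 ± 0.13, adjusted p = 0.161). With the Hox covariate all 4 passed downward, Slc18a3 at adjusted p = 0.0104, Slc5a7 at adjusted p = 0.0229, Chat at adjusted p = 0.0277 and Ache at adjusted p = 0.03. That fit cannot tell level and group apart, since the Hox scores of H and E did not overlap. Slc18a3 also passed without H4 (adjusted p = 0.0211) and with median-ratio scaling (adjusted p = 0.0471). The others that did not pass were Isl2 (-0.59 ± 0.19), Slit3 (-0.31 ± 0.19), Isl1 (-0.15 ± 0.11), Calca (-0.45 ± 0.35), Esrrb (-0.22 ± 0.18) and Chrna4 (-0.08 ± 0.15). The motor neuron score was 4.15, 4.03 and 3.41 in H1, H2 and H4, so the mouse with the lowest lumbosacral Hox score also had the lowest motor neuron score of its group. The count of 8 was 15 with the Hox covariate, 3 with no filter and 4 where H and E alone were fitted. It was 3 without H1, 2 without H2, 3 without E75 and 3 without E77. Chodl and Mmp9 passed in every setting, and Nefl in every setting but the one without H2 (adjusted p = 0.0572).

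**Figure D3:**
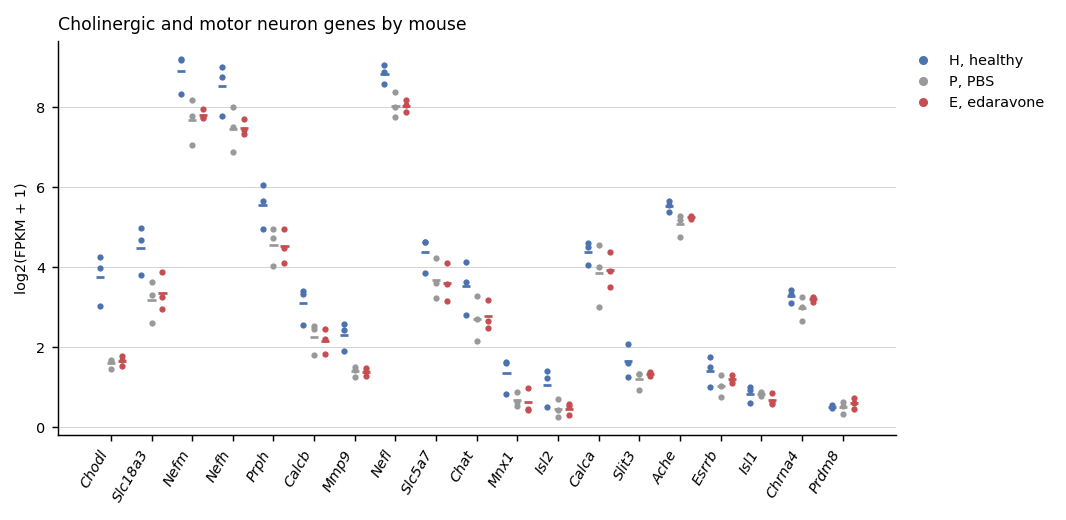
Level of 19 cholinergic and motor neuron genes in each mouse of groups H, P and E, as log2(FPKM + 1) on the y axis with a bar at each group mean. The treated mice lie below the healthy ones for Chodl (1.87 to 2.45 against 7.19 to 18.1 FPKM), and for Chat the lowest healthy point, H4, lies among the treated ones.

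Falls outside the motor neuron list by size included Pvalb, a calcium buffer of interneurons, sensory axons and fast muscle, with 217, 132 and 95.6 FPKM in H and 49.3, 46.2 and 42.4 FPKM in E (-1.59 ± 0.27, adjusted p = 0.00369). Its order over H1, H2 and H4 was that of the muscle score, whose part in the result was not tested. The potassium channel gene Kcnj14 fell by 1.44 ± 0.26 on the log2 scale, and the transporter gene Slc10a4 of cholinergic neurons by 1.24 ± 0.33, a call lost without H1, H2, E75 or E77. Npb, a neuropeptide gene, fell (-1.26 ± 0.25), a call lost with the Hox covariate. Smyd1 (-1.37 ± 0.33) and Sh3bgr (-1.34 ± 0.24), both genes of muscle, fell with 10.0014, 5.14 and 2.62 FPKM in H1, H2 and H4 for Smyd1, whose call was lost without H2 or E75. Of 20 general neuron and synapse genes 4 fell and 0 rose (median -0.21). They were Uchl1 (-0.54 ± 0.12), Stmn2 (-0.55 ± 0.13), Vamp1 (-0.70 ± 0.18) and Snap25 (-0.46 ± 0.13). The count was 0 without H2, 1 without E75 and 1 without E90. Of 17 genes of GABA and glycine neurons 1 rose, Gabra2 (0.31 ± 0.08), and 2 fell, Pvalb and Glrb (-0.41 ± 0.13). The Gabra2 call was lost without H1, E77 or E90, and the Glrb call without H1, H2, H4, E75 or E90. Of 16 glutamatergic neuron genes 0 passed in limma and 0 by limma-voom (1 at an unadjusted p below 0.05, median -0.04). Of 14 dorsal horn neuropeptide genes 0 passed by either tool (0 unadjusted, median 0.03).

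Of 14 tested axon injury genes, which injured neurons switch on, 5 rose and 1, the stathmin gene Stmn4, fell (-0.48 ± 0.11), a call lost without H2, E77 or E90. Sprr1a, a growth-associated protein of regrowing axons, had 0.444, 0.135 and 0.646 FPKM in H and 6.45, 4.42 and 5.77 FPKM in E (2.22 ± 0.17, adjusted p = 0.000131). Atf3, the injury-induced factor, had 3.21, 0.582 and 0.510 FPKM in H and 12.6, 9.23 and 14.2 FPKM in E (2.57 ± 0.33, adjusted p = 0.000951). Ecel1 (0.90 ± 0.11) and Jun (0.70 ± 0.13) rose by less. Of 25 genes in which mutations are linked to ALS, 1 rose, Ang (0.75 ± 0.18), and 1 fell, Kif5a, a kinesin of axonal transport (-0.62 ± 0.14, adjusted p = 0.0135). Each is 4% of the list, against 11.1% of all genes upward and 2.15% downward. The Kif5a call was lost without H2 and without E90, and the Ang call without H1, H4, E77 or E90.

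Of 18 myelin and mature oligodendrocyte genes 4 fell and 0 rose (median -0.27). Mog, a surface protein of the sheath, had 110, 119 and 139 FPKM in H and 73.7, 72.7 and 76.3 FPKM in E (-0.71 ± 0.11, adjusted p = 0.00236). It fell without overlap, and its call held in every setting. Mbp (-0.61 ± 0.15) and Mobp (-0.76 ± 0.20), the basic proteins of compact myelin, fell, and both calls were lost without H4 or E75, that of Mbp also without H1 and that of Mobp without H2. The count of 4 was 10 with median-ratio scaling, 7 by limma-voom, 2 without H4 and 2 without E75. Of 12 oligodendrocyte precursor genes 4 rose, among them Gpr17, a receptor of differentiating precursors (0.52 ± 0.11), and Ptprz1 (0.42 ± 0.10), a call lost without E75, and 4 lay below 0. The count of those that rose was 1 with median-ratio scaling, 2 without H2, H4 or E90 and 1 without E75.

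Of 24 tested genes of cholesterol synthesis 15 fell and 0 rose, and the difference was below 0 in all 24 (median -0.54). Hmgcs1, which opens the pathway, had 59.1, 63.7 and 79.4 FPKM in H and 32.7, 42.5 and 37.6 FPKM in E (-0.82 ± 0.12, adjusted p = 0.00198). Fdft1, which commits it to sterols, had 24.6, 26.4 and 25.7 FPKM in H and 15.7, 16.4 and 16.3 FPKM in E (-0.63 ± 0.10, adjusted p = 0.00230). Cyp51, which demethylates lanosterol (-0.66 ± 0.11), and Sc5d, a late desaturase (-0.54 ± 0.09), fell as well. The groups did not overlap for any of these 4 genes, and their calls held in every setting. Between 12 and 19 of the 24 genes fell in the other settings.

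Cholesterol genes are switched on by the factor SREBP2 through the sterol regulatory element, and the promoter of Hmgcs1 is printed because it holds one. The motif searched was TCACNCCAC on both strands, shown in capitals in the 250 bases before the gene start, chr13:119690101-119690350 (plus strand, RefSeq, GRCm38.p6).
Hmgcs1: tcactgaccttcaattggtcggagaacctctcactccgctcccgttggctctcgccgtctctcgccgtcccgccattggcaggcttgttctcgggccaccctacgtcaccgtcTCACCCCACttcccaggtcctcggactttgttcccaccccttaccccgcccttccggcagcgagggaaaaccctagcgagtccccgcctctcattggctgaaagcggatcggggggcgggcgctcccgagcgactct
The match begins 137 bases before the start. Of the 17 cholesterol genes with a window, 1 (5.88%) held these letters, against 388 of 27025 genes (1.44%). Srebf2, which encodes the factor, did not pass (-0.14 ± 0.14, adjusted p = 0.543).

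All 35 tested oxidative phosphorylation genes of the nuclear genome, whose products make ATP in mitochondria, lay below 0 (median -0.40). Of these 5 passed (14.3%), against 2.15% of all genes that fell. The groups did not overlap for 31 of the 35, against 7.93% of all genes with E lower. At an unadjusted p below 0.05 in limma were 28 of the 35, against 29.7% of all genes. Cycs, cytochrome c, had 37.9, 39.5 and 35.1 FPKM in H and 25.2, 26.3 and 25.0 FPKM in E (-0.54 ± 0.11, adjusted p = 0.0109). Cyc1 (-0.39 ± 0.09), Ndufa4 (-0.78 ± 0.22) and Uqcrq (-0.74 ± 0.21) fell. The count of 5 depended on the setting: it was 26 with median-ratio scaling, 16 with the Hox covariate, 13 with H and E alone, 11 by limma-voom and 2 with no filter. It was 14 without H1, 0 without H2, 2 without H4, 3 without E75, 2 without E77 and 1 without E90. Of 12 mitochondrially encoded genes 1 fell, mt-Nd2 (-0.60 ± 0.18, adjusted p = 0.0466). That call was lost on leaving out any 1 of the 6 mice. Among 25 genes of glycolysis and the citric acid cycle 0 passed in limma and 0 by limma-voom, with 4 at an unadjusted p below 0.05 (median -0.10), a smaller share than the 29.7% of all genes, and 7 lay above 0.

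Of 22 tested enzymes that remove superoxide and peroxide, of interest for a radical scavenger, 3 rose (13.6%) and 0 fell. This share is near that of all genes, 11.1% higher, so the count does not set these enzymes apart. Their median was 0.02 against 0.08 over all genes. Prdx6, a peroxiredoxin that astrocytes express strongly, had 51.4, 55.8 and 59.4 FPKM in H and 128, 98.2 and 119 FPKM in E (1.03 ± 0.19, adjusted p = 0.00610). Gpx8, a peroxidase of the endoplasmic reticulum, had 3.80, 2.57 and 2.78 FPKM in H and 10.8, 8.53 and 13.3 FPKM in E (1.54 ± 0.26, adjusted p = 0.00337). Both were higher in each treated mouse than in any healthy one. Gpx7, its close relative, rose by 0.63 ± 0.17 (adjusted p = 0.0291), a call lost without H1, H2, H4 or E90, with no filter, with median-ratio scaling and with H and E alone.

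The superoxide dismutases did not pass. Sod1, the cytosolic enzyme and itself an ALS gene, had 149, 219 and 244 FPKM in H and 177, 142 and 151 FPKM in E (-0.36 ± 0.23, adjusted p = 0.315). The mutation of the model is not given, and H1 alone lay within the range of the treated mice. Sod2, the mitochondrial enzyme, had 39.4, 39.1 and 32.8 FPKM in H and 27.4, 31.0 and 31.0 FPKM in E (-0.31 ± 0.12, adjusted p = 0.113), and it passed with the Hox covariate (adjusted p = 0.00724). Sod3, the secreted enzyme (0.21 ± 0.20), Ccs, the copper chaperone of Sod1 (-0.09 ± 0.19), and catalase, Cat (0.07 ± 0.11), did not pass. The peroxiredoxins Prdx1 (0.21 ± 0.15), Prdx2 (-0.12 ± 0.09), Prdx3 (-0.19 ± 0.09), Prdx4 (0.14 ± 0.11) and Prdx5 (-0.38 ± 0.14) did not pass either. Nor did the glutathione peroxidases Gpx1 (0.17 ± 0.14), Gpx3 (0.37 ± 0.15) and Gpx4 (-0.32 ± 0.12). The thioredoxin system, Txn1 (-0.02 ± 0.16), Txn2 (-0.08 ± 0.07), Txnrd1 (0.12 ± 0.10) and Txnrd2 (0.10 ± 0.11), stood likewise, as did Glrx (-0.24 ± 0.08) and Msrb1 (-0.07 ± 0.16). Gpx4 (adjusted p = 0.0379), Prdx5 (adjusted p = 0.0432) and Glrx (adjusted p = 0.0254) passed downward with median-ratio scaling.

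NRF2 is the factor that switches on antioxidant genes, and 6 of 23 tested targets and glutathione genes rose (median 0.08). Hmox1, haem oxygenase 1, had 3.78, 3.86 and 3.04 FPKM in H and 17.9, 12.5 and 20.6 FPKM in E (1.96 ± 0.25, adjusted p = 0.000951). Nfe2l2, which encodes NRF2 (1.05 ± 0.14), the cystine importer gene Slc7a11 (0.58 ± 0.13) and Mgst1 (0.62 ± 0.14) rose, and the count was 3 without E90. The motif TGACNNNGC of the antioxidant response element was found in 8 of 18 targets with a window (44.4%), in 3 of 19 superoxide and peroxide enzymes (15.8%) and in 3781 of 27025 genes (14.0%). Of 15 iron genes 4 rose, among them Slc11a1, an iron and manganese exporter of phagosomes (1.99 ± 0.21), the ferroxidase gene Cp (1.90 ± 0.27) and the ferritin gene Ftl1 (1.44 ± 0.28). Of 11 genes of metallothionein, zinc and manganese 2 rose, Slc39a1 (1.10 ± 0.13) and Slc39a14 (0.70 ± 0.18), both metal importers, a count of 1 without H2, E75 or E90. The Slc39a14 call was lost without H2, H4, E75 or E90 and with no filter. The metallothionein gene Mt2 was listed at 0 in 11 of the 12 libraries.

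Of 20 unfolded protein response genes 4 rose, Trib3 (0.68 ± 0.16), Ddit3 (0.42 ± 0.10), Pdia3 (0.52 ± 0.14) and Pdia4 (0.60 ± 0.18). That count was 7 by limma-voom, 1 with median-ratio scaling, 0 without H1 and 2 without H4, E77 or E90. Of 16 heat shock genes 0 passed in limma and 0 by limma-voom, with 1 at an unadjusted p below 0.05. Of 20 genes of p53 and cell death 10 rose, with the death receptor gene Tnfrsf1a (1.55 ± 0.23), Casp1 (1.03 ± 0.16), Bcl2 (0.58 ± 0.09) and Pmaip1 (0.87 ± 0.16). Proliferation genes rose in 9 of 18 tested, among them Top2a (0.92 ± 0.16) and Ccnd1 (1.07 ± 0.20), and that count was 2 without H2, 5 without E75 and 3 without E90. Of 15 circadian clock genes 2 rose (13.3%, near the 11.1% of all genes), Per1 (0.52 ± 0.13) and Per2 (0.38 ± 0.11). The count was 0 without H2, H4 or E77 and 1 without H1, E75 or E90. Of 31 proteasome genes 1 fell (3.23%, near the 2.15% of all genes), Psmc5 (-0.45 ± 0.12). That call was lost without H2, H4, E75, E77 or E90.

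Immediate early genes, which cells switch on within minutes of a stimulus, rose in 11 of 16 tested (median 0.70). Fos had 6.26, 5.80 and 4.99 FPKM in H and 17.6, 24.2 and 17.3 FPKM in E (1.62 ± 0.17, adjusted p = 0.000389). Egr1 had 4.65, 5.51 and 6.80 FPKM in H and 16.2, 22.0 and 15.1 FPKM in E (1.49 ± 0.17, adjusted p = 0.000615). For both, each treated mouse lay above each healthy one. Junb (1.37 ± 0.15) and Fosl2 (0.95 ± 0.13) rose with them. Against P, 8 of the 16 were at an unadjusted p below 0.05, beside 889 of all 18118 genes, and 0 passed. Fos was at 16.7, 11.5 and 10.1 FPKM in P66, P67 and P74. Of 12 glucocorticoid-responsive genes 4 rose, Lcn2, Map3k6 (0.79 ± 0.15), Sult1a1 (0.84 ± 0.16) and Per1, and 4 lay below 0 (median 0.31). The Per1 call was lost without H2, H4, E77 or E90. Against P, 6 of the 12 were at an unadjusted p below 0.05 in limma, and 0 passed.

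Genes of nerve root and meninges rose in E, whereas all 13 tested genes of muscle, given with those of blood, lay below 0. Of 13 tested Schwann cell and nerve root genes 11 rose and 1, Mbp, which is shared with central myelin, fell (median 2.14). The root score was 3.17, 2.62 and 2.31 in H1, H2 and H4, then 3.51, 3.86 and 3.60 in P66, P67 and P74, and 4.73, 4.26 and 5.16 in E75, E77 and E90. The treated mice thus held the highest root signal of the 3 groups. Prx, a scaffold of peripheral myelin, had 3.51, 0.792 and 0.176 FPKM in H and 27.1, 11.7 and 33.2 FPKM in E (3.44 ± 0.55, adjusted p = 0.00348). Scn7a, a sodium channel of glia outside the cord (1.81 ± 0.16), Drp2 (1.63 ± 0.18), Dhh, the hedgehog signal of Schwann cells (2.48 ± 0.33), and Ncmap, a protein of non-compact myelin (2.22 ± 0.30), rose. Pmp2, another marker of these cells, was listed at 0 in 5 of the 6 mice.

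Genes of meninges and fibroblasts rose in 13 of 17 tested (median 1.51), a count of 8 without H2 and 8 without E90. Ogn, a proteoglycan of connective tissue, had 6.20, 2.93 and 0.496 FPKM in H and 56.6, 57.6 and 113 FPKM in E (4.38 ± 0.51, adjusted p = 0.000942). Dcn had 7.78, 2.86 and 1.93 FPKM in H and 39.1, 37.1 and 74.9 FPKM in E (3.40 ± 0.51, adjusted p = 0.00267). Both proteoglycan genes had no overlap, with E90 highest. Lum (3.35 ± 0.54), the collagen gene Col1a2 (1.69 ± 0.27) and Thbs2 (1.75 ± 0.24) rose. Genes of border and blood macrophages rose in 5 of 10 tested, among them the mannose receptor gene Mrc1 (1.37 ± 0.22) and the scavenger receptor gene Stab1 (1.19 ± 0.20). That count was 3 without H2, 3 without E75 and 3 without E90. Their score was 0.55, 0.30 and 0.30 in H and 1.13, 0.84 and 1.31 in E, beside the rises of microglia genes given above, and its part in those rises was not tested.

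Among other cell types, 4 of 17 endothelial genes rose, led by the adhesion genes Vcam1 (0.94 ± 0.17) and Icam1 (1.17 ± 0.21). Of 7 tested T and NK cell genes 2 rose, Cd4 (0.64 ± 0.16) and Cd8a (0.25 ± 0.07), with Cd3e at 0.0145 to 0.234 FPKM in E. Both calls were lost without H1 or H2, and that of Cd8a also without H4, E77 or E90. The difference was above 0 in all 7, and 6 were at an unadjusted p below 0.05 in limma, against 29.7% of all genes. The T cell marker Trac had 1.275, 1.342 and 2.165 FPKM in H and 2.274, 2.5 and 5.48 FPKM in E. Of 5 B cell genes 0 passed in limma and 0 by limma-voom, with 1 at an unadjusted p below 0.05. Of 8 neutrophil genes 1 rose (12.5%, near the 11.1% of all genes), Csf3r (1.79 ± 0.22), a receptor that microglia carry too. Ependymal genes gave 1 rise, Cfap126 (0.57 ± 0.13), and 1 fall, Tppp3 (-0.74 ± 0.10), of 12. Each is 8.33% of the list, against 11.1% of all genes upward and 2.15% downward. The Cfap126 call was lost without H2 or E90. Of 10 pericyte genes 2 rose, Pdgfrb (0.77 ± 0.18) and Vtn (0.92 ± 0.27), and the count was 0 without H2, H4, E75 or E90.

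The blood and level of the samples also differed. Of 9 erythroid genes 5 fell, and Hbb-bs ran from 195 FPKM in H2 to 1275 FPKM in H4 against 52.1, 71.97 and 144 FPKM in E. The count was 0 with the Hox covariate and with H and E alone, 3 without H1 or H4, 8 without H2, 1 without E75 and 2 without E77. Of 13 muscle genes 1 passed, Pvalb, although the median was -3.09. Acta1, skeletal actin, had 796, 46.9 and 6.25 FPKM in H and 1.88, 0.616 and 11.9 FPKM in E, so H4 and E90 overlapped. Without H4 the muscle count was 11. Of 9 lumbosacral Hox genes 3 rose, a count of 1 without H2 or E77. Hoxc12 had 0.116, 0 and 0 FPKM in H and 3.38, 3.94 and 3.06 FPKM in E (2.10 ± 0.32, adjusted p = 0.00219). Hoxc8, a gene of more rostral levels, fell with 20.9, 24.9 and 38.8 FPKM in H and 14.5, 9.53 and 8.31 FPKM in E (-1.30 ± 0.25, adjusted p = 0.00682). That call was lost with the Hox covariate, where the difference was -0.54. Level entered only through the Hox covariate, whose scores did not overlap between H and E. Calls kept, gained or lost in that fit therefore cannot tell level and group apart. The part of roots, meninges, blood and muscle in the other differences was not tested.

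**Figure D4:**
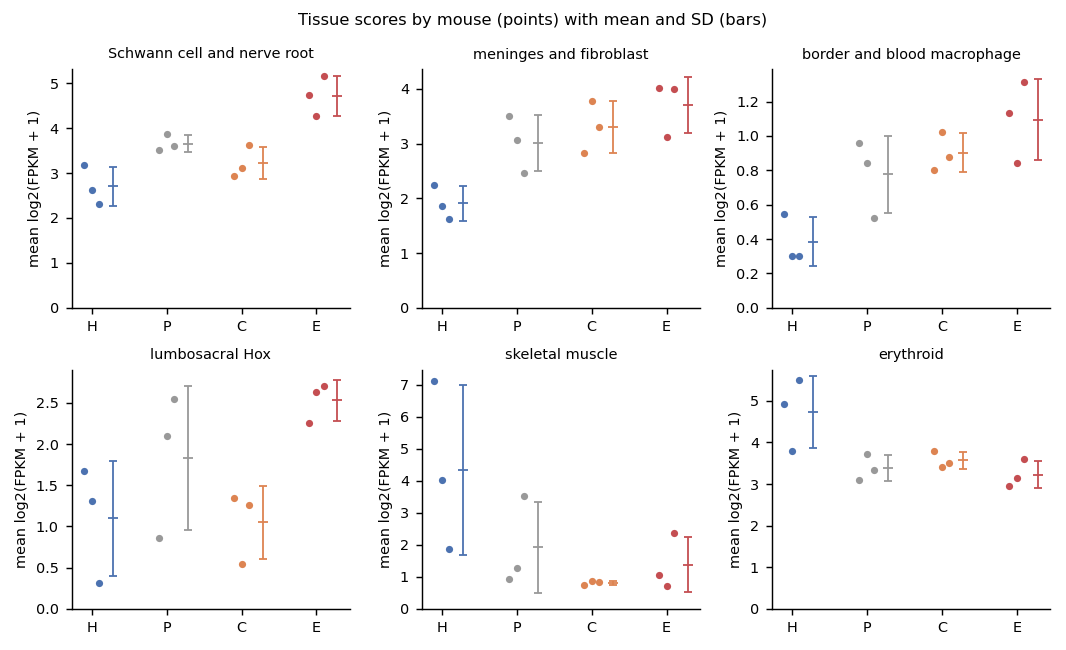
Score of 6 tissue lists, the mean log2(FPKM + 1) of their tested genes, in each mouse of the 4 groups, with the group mean and SD beside the points. The nerve root score of the 3 E mice, 4.26 to 5.16, lies above all other mice, and the muscle score of H1, 7.12, stands apart.

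Edaravone against PBS in the model answers whether the distance of E from H differed from that of P from H. No gene passed, and the smallest adjusted p was 0.0913. Lcn2 had the smallest p (1.94 ± 0.26 as E minus P, unadjusted p = 7.92e-06), with 2.87, 2.42 and 1.41 FPKM in P66, P67 and P74. Every E mouse was above every P mouse, and the adjusted p was 0.0913, from 0.0118 without E75 to 0.532 over the settings. Bok, a cell death regulator, stood at 5.21, 5.66 and 6.26 FPKM in H, 3.34, 4.38 and 3.96 in P and 8.50, 6.69 and 7.32 in E. Its E minus P was 0.80 (95% interval 0.56 to 1.03). Stra6, a vitamin A transporter gene (0.67), Cd5l, a secreted macrophage protein (1.17), and the laminin gene Lamb1 (1.14) had the next smallest p-values upward. Downward these were Car2, a carbonic anhydrase of oligodendrocytes (-0.49), Gm38155 (-0.43), Bcas1os2 (-0.53), Sox2ot (-0.47) and Gm32122 (-0.65), with adjusted p from 0.250 to 0.254.

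For the leading genes the intervals of E minus P show what size of difference the data allow. Cst7 was -0.45 (95% interval -1.20 to 0.31), Clec7a -0.52 (-1.20 to 0.15), Serpina3n -0.32 (-1.09 to 0.44) and Chodl 0.06 (-0.55 to 0.66). Ogn was 1.69 (0.56 to 2.83) and Prx 1.92 (0.70 to 3.13), both connective or root genes. The median interval over all genes reached 0.25 to either side, without adjustment for the number of genes tested. Larger differences could still miss the adjusted threshold, as those of Ogn and Prx did. Between the lists, the median E minus P was -0.11 for disease-associated microglia, 0.06 for motor neurons and -0.0050 for cholesterol synthesis. For the nerve root list it was 1.25, and 0 genes passed. At an unadjusted p below 0.05 were 10 of its 13 genes, beside 889 of all 18118.

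**Figure D5:**
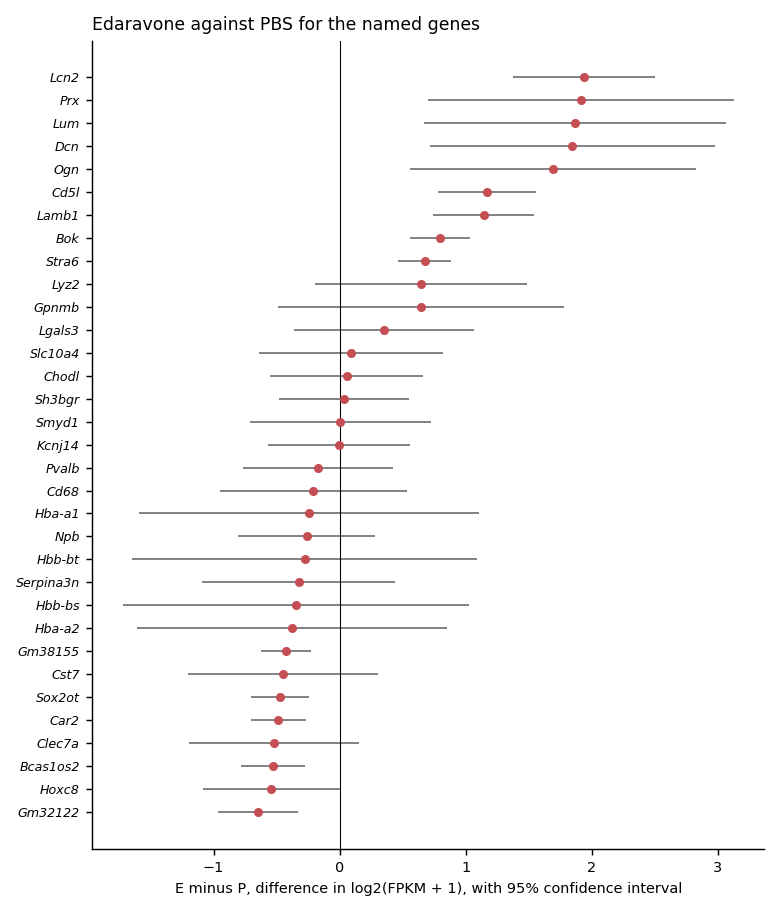
Difference between edaravone and PBS groups in log2(FPKM + 1), with its 95% confidence interval, for genes named by size of change against H and those of smallest p against P. Intervals of Cst7 (-1.20 to 0.31) and Chodl (-0.55 to 0.66) hold 0, and those of Lcn2, Prx and Ogn lie above it.

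Edaravone against carbon dots tests the difference between the 2 treatments. 31 genes passed (0.171%), 22 higher in E (0.121%) and 9 lower (0.0497%). Scn7a had 0.964, 0.924 and 1.67 FPKM in C79, C84 and C85 and 4.11, 4.68 and 6.52 FPKM in E (1.48, adjusted p = 0.0184). Drp2 (1.21) and Dhh (2.14), also of the nerve root list, were higher in E than in C, beside root scores of 2.94, 3.11 and 3.63 in C. The count was 0 without C79, 0 with the Hox covariate and 56 without E77.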

How the data were processed

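Poly(A) RNA of the lumbar cord of 12 mice, 3 in each of 4 groups, was sequenced. The authors deposited 1 normalized value per gene and library, read here as FPKM because the table names no unit, and 95.2% to 95.6% of low values, times the exon length in GENCODE M21, were whole multiples (within 0.02) of 1 step per library. Cutadapt, HISAT2, featureCounts and GRCm38 are named, per the submitters' processing notes, without versions or the strand setting. Of 33906 gene IDs 33829 matched the annotation. Genes with at least 10 recovered reads in 3 of 12 libraries were tested, and 15788 were set aside. The limma 3.58.1 fit (R 4.3.3) used log2(FPKM + 1), the 4 group means (8 residual degrees of freedom), trend and robust moderation and Benjamini-Hochberg adjustment. Depth was 16.8 to 19.8 M recovered reads per library. On simulated data 76 of 100 genes changed 2-fold and 98 of 100 changed 4-fold were recovered, with 10 false calls among 18118 genes. The changed genes were drawn only from those with a mean of at least 100 reads in H. Reads were drawn gene by gene, without differences in tissue shared by many genes. The recovery therefore does not cover genes of fewer reads, nor the false calls such shared differences. Genes named were the 12 largest changes in each direction among those that passed with mean FPKM of at least 1 and no overlap, the 4 smallest p-values of each list, every superoxide, peroxide and motor neuron gene, and the 5 smallest p-values in each direction for E against P. Some genes that this rule names are not reported here. Genes outside this rule were chosen after their values were seen. The members and lists were chosen with earlier results of these data known. Alternatives changed the pseudocount to 0.1, the filter, the scaling, the tool (limma-voom), the moderation, the covariates and the libraries included.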

Additional observations from a re-analysis of the deposited data

Results flagged for a closer look

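Against carbon dots, 31 genes differed in edaravone-treated mice, so their distance from healthy cord differed between the treatments by a direct test. Of these, the genes also named elsewhere in the text were, as log2 E minus C with limma's adjusted p, Scn7a (1.48, adjusted p = 0.0184), Cd5l (1.30), Lamb1 (1.33), Gm32122 (-1.04) and Lcn2 (1.83), the last 4 at adjusted p = 0.0252. Hoxc12 (2.15), Ccl11 (2.56), Drp2 (1.21) and Dhh (2.14) had adjusted p = 0.0277, Tppp3 (-0.64) adjusted p = 0.033 and Nkx2-9 (-0.97) adjusted p = 0.0426. Of genes chosen after their values were seen, Tmem125 (-0.62, adjusted p = 0.0216), Sostdc1 (1.86, adjusted p = 0.0225) and Angptl4 (1.60, adjusted p = 0.0252) passed as well. Lcn2 had 2.31, 2.05 and 2.97 FPKM in C79, C84 and C85. Cd5l had 0.0821, 0.0533 and 0.0316 FPKM in C and was listed at 0 in all 3 healthy mice. Hoxc12 was listed at 0 in all 3 C libraries. The nerve root and lumbosacral Hox scores differed between these groups too. With the Hox score as covariate 0 genes passed, and 0 passed without C79. The Hox scores of E and C did not overlap, so that fit cannot tell level and treatment apart. The part of the root score was not tested.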

How the results depend on the processing

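No paired analysis was possible because no replicate number is shared between groups. E against H gave 1469 genes with no filter (1247 higher, 222 lower), 1287 higher and 918 lower with median-ratio scaling, and 715 lower with the Hox covariate. Leaving out 1 mouse gave 1159 (without E90) to 2230 (without H4) in all, 967 to 1766 higher and 174 to 488 lower. E against P gave 3 genes with no filter, 1 with the FPKM filter and 0 to 2 on leaving out 1 mouse. E against C gave 17 with pseudocount 0.1, 4 with no filter, 4 with E and C alone, 0 with the Hox covariate and 0 to 56 on leaving out 1 mouse. Of 175 named genes that passed, 118 passed in all 14 alternatives and 57 were lost in some. Directions reversed, for genes that had not passed, for Prdm8 (-0.11), Txn1 (0.047), Txnrd1 (-0.057) and Msrb1 (0.10) with the Hox covariate and for Cat (-0.054) with median-ratio scaling. On leaving out 1 mouse Sod3 ran from -0.011 to 0.44, Ccs from -0.24 to 0.079, Cat from -0.028 to 0.15, Txn1 from -0.19 to 0.067, Txnrd1 from -0.008701 to 0.21 and Msrb1 from -0.18 to 0.074. The cause was not tested.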

Other observations

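Genes outside the lists, chosen after their values were seen, include further phagocyte genes. Mpeg1, a pore-forming protein of macrophages, had 5.94, 7.21 and 9.31 FPKM in H and 71.4, 50.4 and 87.6 FPKM in E (3.04 ± 0.29, limma adjusted p = 0.000289). Adgre1, which encodes the macrophage antigen F4/80, rose by 2.11 ± 0.18, and the urea transporter gene Slc14a1 by 1.79 ± 0.15. Atp6v0d2, a proton pump subunit, was at most 0.0201 FPKM in H and had 5.24, 5.27 and 11.3 FPKM in E, with 3.18, 2.33 and 0.606 FPKM in P. Ccl11, a chemokine for eosinophils, had 1.21, 0.302 and 0.214 FPKM in H and 6.93, 6.33 and 14.2 FPKM in E (2.66 ± 0.39).

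Falls outside the lists included Rspo2, a Wnt agonist, with 3.82, 4.07 and 3.15 FPKM in H and 1.28, 0.988 and 1.29 FPKM in E (-1.10 ± 0.10, limma adjusted p = 0.000289). Tesc fell by 1.18 ± 0.13 on the log2 scale and the homeobox gene Nkx2-9 by 1.21 ± 0.16. The groups did not overlap for any of these 3 genes.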
